A study of Mus musculus with 9 samples.

Results

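The 9 genes described here are Klf2, Klf3, Klf6, Klf7, Klf10, Foxo1, Foxo3, S1pr1 and Ccr7. They were grouped as the KLF2-FOXO1 axis of T cell homing and quiescence, together with family members of KLF2 and FOXO1. They were taken by gene symbol from 37022 mouse genes, and all 9 were found in the deposited tables. Each gene is represented by 1 annotated transcript, the one whose gene-body signal had the highest average across libraries. The libraries are nascent RNA from mouse CD8+ T cells, in 3 groups of 3: acute stimulation (Acute), chronic stimulation (Chronic), and chronic stimulation with MEK inhibition (ChronicMEKi). MEK is the kinase that activates ERK downstream of the T cell receptor. The labels do not give the genotype, strain or age of the mice, the way or length of the stimulation, or the name and dose of the inhibitor. They also do not say whether the 3 libraries of a group came from separate animals or cultures, so p-values measure only the spread between these libraries, which may be technical. All cells were labelled with 0.2 mM 5-ethynyl uridine for 30 minutes, and the labelled RNA was captured on beads through a biotin click reaction. The signal of a gene therefore follows its recent transcription in the whole population, and fewer cells transcribing a gene and less transcription per cell cannot be told apart.

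FOXO1 is a forkhead transcription factor that keeps resting lymphocytes quiescent and recirculating. Signalling through PI3K and AKT phosphorylates FOXO1 and moves it out of the nucleus, and in T cells FOXO1 drives transcription of Klf2 together with Ccr7. KLF2 is a zinc-finger factor of the Krüppel-like family, which binds GC-rich and CACCC elements. It activates S1pr1, whose product senses sphingosine-1-phosphate and lets T cells leave lymphoid organs. CCR7 is the chemokine receptor that takes T cells into the T zone of lymph nodes. KLF3 is a repressor of the same family, KLF6 and KLF7 are family members that bind related GC-rich sites, and KLF10 is a TGF-beta-inducible member.

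The stretches below come from the windows of 250 bases before to 50 bases after the annotated start in RefSeq (GRCm38.p6). They are shown because the 4 genes differed in how their nascent signal changed. RefSeq windows were matched for 6 of the 9 genes, Klf2, Klf3, Klf6, Klf7, Foxo1 and Foxo3. Each stretch is written 5′ to 3′ on the strand of its gene. Capitals in Klf2 mark GC boxes (GGGCGG, either strand) and a match to the MEF2 consensus. Capitals in Klf6 and Foxo1 mark GC boxes and CCAAT boxes (CCAAT, either strand), and in Foxo3 GC boxes.
Klf2, chr8:72318842-72318962, plus strand: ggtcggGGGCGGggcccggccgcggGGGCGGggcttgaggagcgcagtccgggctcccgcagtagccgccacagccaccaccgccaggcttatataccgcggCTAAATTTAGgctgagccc
Foxo1, chr3:52268167-52268287, plus strand: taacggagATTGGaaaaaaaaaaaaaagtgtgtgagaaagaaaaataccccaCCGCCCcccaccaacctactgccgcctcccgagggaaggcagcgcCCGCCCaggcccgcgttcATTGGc
Klf6, chr13:5861254-5861434, plus strand: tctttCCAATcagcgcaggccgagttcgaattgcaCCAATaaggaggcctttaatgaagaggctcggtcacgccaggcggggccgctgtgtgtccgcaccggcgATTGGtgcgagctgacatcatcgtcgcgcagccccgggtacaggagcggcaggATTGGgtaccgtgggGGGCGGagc
Foxo3, chr10:42276760-42276885, minus strand: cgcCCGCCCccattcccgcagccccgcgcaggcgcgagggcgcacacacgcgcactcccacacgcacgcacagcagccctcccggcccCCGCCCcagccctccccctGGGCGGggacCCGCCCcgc

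All 6 matched windows hold at least 1 GC box, against 35.7% of the 32851 windows of this length. The whole windows hold 2 GC boxes for Klf2, 6 for Klf3, 1 for Klf6, 1 for Klf7, 5 for Foxo1 and 5 for Foxo3. Their GC content ran from 58.3% for Klf7 to 76.7% for Klf3, and the median of all windows was 52.7%. The MEF2 consensus matched in the Klf2 window alone among the 6, from position -118 to -109, and in 3.19% of all windows. MEF2 factors are the nuclear targets of the MEK5-ERK5 cascade, a known inducer of Klf2. CCAAT boxes matched 4 times in Klf6 and 3 times in Foxo1 (37.4% of all windows hold 1 or more). CACCC matched once in Klf2, 5 times in Klf3 and 3 times in Klf7 (57.5% of all windows). Neither the FOXO motif GTAAACA (3.65% of all windows) nor the ETS motif CCGGAAG (8.86%), the AP-1 motif TGANTCA (7.81%), the CRE TGACGTCA (1.79%) or TATAAA (13.6%) matched in the 6 windows. Both strands were searched and matches of different motifs were allowed to overlap. A match says only that these letters are present.

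Gene-body signal summed to between 48601757 and 52216192 per library. Pause-region signal, the signal near the transcription start, summed to between 4886503 and 8489288. These are sums of coverage, so the depth in reads is unknown. Correlations of log2 profiles were 0.959 to 0.984 over the 9 pairs of libraries within groups and 0.91 to 0.954 over the 27 pairs between groups. Rows resembling ribosomal RNA took 19.1% to 22.3% of the signal in Acute, 34.2% to 40.6% in Chronic and 29% to 36.1% in ChronicMEKi. Libraries were therefore scaled on the bulk of genes by a trimmed mean. Dusp6, an ERK-induced phosphatase gene, ranged from 2194 to 2772 in Acute, 2315 to 2491 in Chronic and 193 to 211 in ChronicMEKi. All 8 markers of CD8 T cells passed the filter, with summed levels of 26750 to 31173, 18536 to 19347 and 22814 to 24838 in the 3 groups, and mean Cd8a levels of 4061, 968 and 2881. Markers of other cell types were mixed: 2 of 2 CD4 T cell, 3 of 6 B cell, 2 of 6 myeloid, 2 of 4 NK and 2 of 4 endothelial markers passed the filter. The CD4 T cell markers had means of 442, 234 and 116 (Cd4) and 789, 1002 and 1769 (Zbtb7b) in the 3 groups. Ms4a1 (0 to 24.5), Lyz2 (0 to 8.49) and Ncr1 (0 to 6.4) were low or at 0, while the B cell markers Ebf1 (84.9 to 288), Pax5 (42.3 to 207) and Cd79a (63.1 to 375) and the myeloid markers Csf1r (27.8 to 107) and Adgre1 (17.6 to 122) were above 0 in every library. Cd79a had means of 335 in Acute, 106 in Chronic and 153 in ChronicMEKi, the same order as the homing genes, and the part of other cell types in the results was not tested.

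Chronic stimulation split the 9 genes. Klf2, Klf3, Foxo1, S1pr1 and Ccr7 fell relative to Acute, and Klf7, Klf10 and Foxo3 rose. Klf6 was called higher as well, at a log2 change of 0.36, but turned to -0.13 when libraries were scaled on their totals and to -0.11 on the deposited scale. Thus 9 of 9 genes passed the limma threshold (adjusted p under 0.05), 4 higher and 5 lower, in a comparison where 33.9% of 15942 genes passed, 18% higher and 15.9% lower. The 3 Acute and 3 Chronic libraries did not overlap for any of the 9, which held for 44.2% of all genes. The median log2 change of the 9 was -1.55, and that of all genes -0.02.

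With MEK inhibition during chronic stimulation, 7 of the 9 genes differed from Chronic. Klf2, Klf3, Foxo1, Foxo3, S1pr1 and Ccr7 rose, Klf6 fell, and Klf7 and Klf10 did not pass. Over all genes 17.6% passed, 9.93% higher and 7.65% lower. The libraries of Chronic and ChronicMEKi did not overlap for those 7 genes, against 32.2% of all genes. The median log2 change was 0.65 for the 9 genes and 0.04 for all genes. All 5 genes that had fallen under chronic stimulation were among the risers, but this comparison uses the same Chronic libraries as the first, so the directions are not independent.

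Setting ChronicMEKi against Acute, 7 of the 9 passed: Klf3, Foxo1, S1pr1 and Ccr7 were lower and Klf7, Klf10 and Foxo3 higher. Klf2 and Klf6 did not pass. Over all genes 25.8% passed, 14.4% higher and 11.5% lower. The libraries did not overlap for any of the 9, against 42% of all genes. The median log2 change was -0.34 for the 9 and 0 for all genes.

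**Figure D1:**
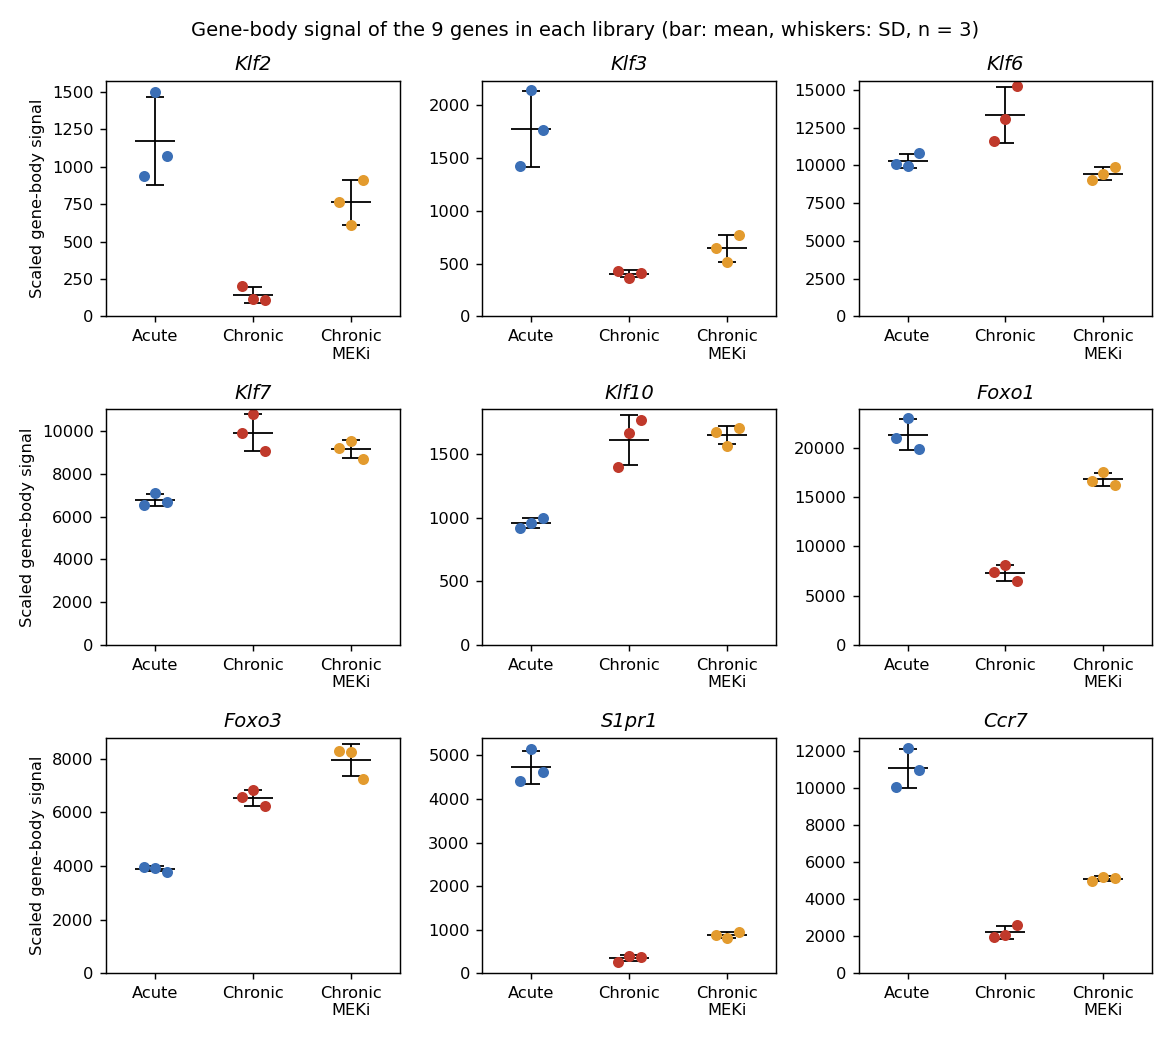
Scaled gene-body signal (vertical axis, linear, from 0) of each of the 9 genes in the 9 libraries, 1 point per library, with the mean and SD of each group (n = 3). Klf2, Foxo1, S1pr1 and Ccr7 lay lowest in Chronic, Klf7 and Klf10 lay lowest in Acute, and Klf6 lay highest in Chronic on this scale.

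Foxo1 (chromosome 3, 52268336 to 52353221, plus strand, GRCm38) fell under chronic stimulation and rose again in part with MEK inhibition. Its gene-body signal was 21006, 23031 and 19878 in Acute, 7411, 8052 and 6451 in Chronic, and 16638, 17543 and 16247 in ChronicMEKi. The Chronic libraries were far below the other 6, and the ChronicMEKi libraries all lay under the Acute ones. Foxo1 fell by 1.55 on the log2 scale in Chronic against Acute (SE 0.0928, limma adjusted p = 3.77e-10). It rose by 1.21 in ChronicMEKi against Chronic (adjusted p = 2.99e-08). The remaining difference of ChronicMEKi from Acute was -0.34 (adjusted p = 0.0107), a call that was lost without ChronicMEKi replicate 3 (adjusted p = 0.0555) and without trend and robust moderation (adjusted p = 0.0769). The gap was larger on library totals (-0.72, adjusted p = 0.000138) and on the deposited scale (-0.68, adjusted p = 0.000221). On totals without rRNA-like rows it was -0.51 (adjusted p = 0.000352). The annotation places the antisense gene Gm20402 over 1001 bases near the start of Foxo1 and Gm38034 over 2069 bases on its own strand. Whether the authors counted by strand is not given in the sources used here, so reads of these genes cannot be told apart from those of Foxo1.

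Foxo3 (chromosome 10, 42181841 to 42276752, minus strand), a FOXO factor under the same AKT control, moved the other way under chronic stimulation. It measured 3984, 3933 and 3791 in Acute, 6562, 6848 and 6248 in Chronic, and 8306, 8268 and 7255 in ChronicMEKi. The groups rose in that order with no overlap. Foxo3 was 0.75 higher on the log2 scale in Chronic than in Acute (SE 0.0873, adjusted p = 2.36e-06) and 1.02 higher in ChronicMEKi than in Acute (adjusted p = 8.07e-08). The first of these calls was lost on library totals (0.26) and on the deposited scale (0.27). The step from Chronic to ChronicMEKi was 0.28 (adjusted p = 0.0355), and it passed in 8 of 20 alternatives. Leaving out any 1 of the Acute libraries, Chronic replicate 1 or 3, or ChronicMEKi replicate 1 or 2 ended that call, with log2 changes of 0.18 to 0.28.

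Because both FOXO genes were read in the same library, their ratio does not depend on the scaling. Per kilobase of gene, Foxo1 signal was 6.1 ± 0.386 times that of Foxo3 in Acute (SD, n = 3), with libraries at 5.9, 6.55 and 5.86. In Chronic the ratio was 1.24 ± 0.0818, with libraries at 1.26, 1.31 and 1.15. ChronicMEKi lay between them at 2.37 ± 0.132, with libraries at 2.24, 2.37 and 2.5. The 3 groups did not overlap. This pair was chosen after its values were seen, and no test is given.

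Klf2 (chromosome 8, 72319033 to 72321656, plus strand) had the steepest fall and the steepest recovery among the transcription factors of the 9. Its gene-body signal was 940, 1503 and 1071 in Acute, 207, 116 and 108 in Chronic, and 768, 612 and 912 in ChronicMEKi. Every Chronic library was below every other library, and all ChronicMEKi libraries were below the lowest Acute library, 912 against 940 at the nearest. Klf2 fell by 3.01 on the log2 scale in Chronic against Acute (SE 0.25, adjusted p = 3.17e-08). It rose by 2.41 in ChronicMEKi against Chronic (SE 0.25, adjusted p = 1.37e-06). Both calls held in 20 of 20 alternatives. ChronicMEKi was not called different from Acute, at -0.60 with a 95% interval of -1.13 to -0.08 (adjusted p = 0.0882). That difference passed in 5 of 20 alternatives, among them without Chronic replicate 1 (adjusted p = 0.0389) and on library totals, where it was -0.99 (adjusted p = 0.00343), so return to the Acute level was not shown. No other annotated gene overlaps Klf2.

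Klf3 (chromosome 5, 64803388 to 64832901, plus strand) fell with Klf2 but came back less. It measured 1425, 2143 and 1769 in Acute, 434, 368 and 415 in Chronic, and 646, 513 and 775 in ChronicMEKi. The ChronicMEKi libraries were above all Chronic and far below all Acute libraries. Klf3 fell by 2.10 on the log2 scale in Chronic (SE 0.183, adjusted p = 5.14e-08) and was still at -1.46 in ChronicMEKi against Acute (adjusted p = 8.33e-06). Its rise from Chronic to ChronicMEKi was 0.65 (adjusted p = 0.0186). This call was lost without Chronic replicate 2 (adjusted p = 0.0769), ChronicMEKi replicate 1 (0.0963) or ChronicMEKi replicate 3 (0.113), and without trend and robust moderation (0.071). Gm20033 on the opposite strand and C230096K16Rik on the same strand overlap Klf3 over 730 and 1722 bases.

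Klf6, Klf7 and Klf10 did not share the fall of Klf2. Klf6 (chromosome 13, 5861482 to 5870394, plus strand) gave 10076, 9989 and 10843 in Acute, 11617, 13068 and 15281 in Chronic, and 9021, 9462 and 9891 in ChronicMEKi. Chronic was highest and ChronicMEKi lowest, without overlap. The rise in Chronic was 0.36 on the log2 scale (SE 0.0964, adjusted p = 0.00676), with the reversal on library totals and the deposited scale given above, so its direction against Acute depends on the scaling. The call was also lost without trend and robust moderation (adjusted p = 0.0572). The fall of 0.49 from Chronic to ChronicMEKi (adjusted p = 0.00131) held in 20 of 20 alternatives. ChronicMEKi and Acute differed by -0.12, with a 95% interval of -0.33 to 0.08 (adjusted p = 0.393). Klf6 was called lower there on library totals (-0.51, adjusted p = 0.00211), on the deposited scale (-0.47, adjusted p = 0.00368) and on totals without rRNA-like rows (-0.29, adjusted p = 0.0297).

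Klf7 (chromosome 1, 64029447 to 64121491, minus strand) measured 6558, 7101 and 6681 in Acute, 9915, 10798 and 9093 in Chronic, and 9213, 9536 and 8698 in ChronicMEKi. Acute was lowest, and the other groups overlapped each other. Klf7 was 0.55 higher on the log2 scale in Chronic than in Acute (SE 0.0874, adjusted p = 7.72e-05) and 0.43 higher in ChronicMEKi than in Acute (adjusted p = 0.00112). Both calls were lost on library totals (0.06 and 0.05) and on the deposited scale (0.07 and 0.09). The change from Chronic to ChronicMEKi was -0.12, with a 95% interval of -0.30 to 0.07. Klf7 overlaps Gm13748 (12129 bases) and Gm26649 (3465 bases) on the opposite strand and Mir6899 on its own.

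Klf10 (chromosome 15, 38291463 to 38300706, minus strand) followed the pattern of Klf7 at a lower signal. Its values were 921, 956 and 998 in Acute, 1397, 1671 and 1774 in Chronic, and 1678, 1569 and 1708 in ChronicMEKi. All 6 chronically stimulated libraries were above the Acute ones, and those with and without the inhibitor overlapped. Klf10 was 0.74 higher in Chronic than in Acute (SE 0.123, adjusted p = 0.000117), a call lost on library totals (0.25) and on the deposited scale (0.27). It was 0.78 higher in ChronicMEKi than in Acute (adjusted p = 0.000101). Chronic and ChronicMEKi differed by 0.04, with a 95% interval of -0.22 to 0.30.

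Within a library, Klf2 signal per kilobase was 0.388 ± 0.107 of that of Klf6 in Acute (SD, n = 3). It was 0.0383 ± 0.0196 in Chronic and 0.274 ± 0.0486 in ChronicMEKi. The libraries of Chronic, 0.024 to 0.0606, lay below all others, while Acute (0.317 to 0.511) and ChronicMEKi (0.22 to 0.313) nearly met. This ratio also needs no scaling between libraries, and the pair was chosen after its values were seen.

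S1pr1 (chromosome 3, 115710433 to 115715072, minus strand), the egress receptor gene downstream of KLF2, had the largest fall of the 9 genes. It measured 4412, 5154 and 4616 in Acute, 267, 388 and 383 in Chronic, and 883, 805 and 945 in ChronicMEKi. The ChronicMEKi libraries stood clear of the Chronic ones but far under the lowest Acute library. S1pr1 fell by 3.77 on the log2 scale in Chronic (SE 0.151, adjusted p = 2.89e-12). It was 1.35 higher in ChronicMEKi than in Chronic (adjusted p = 3.36e-06), and against Acute ChronicMEKi was at -2.42 (adjusted p = 1.95e-09).

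Ccr7 (chromosome 11, 99144196 to 99155077, minus strand) showed the same order with a smaller spread between groups. Its signal was 10066, 12165 and 10933 in Acute, 1963, 2057 and 2591 in Chronic, and 4985, 5217 and 5127 in ChronicMEKi. No libraries of different groups overlapped. Ccr7 fell by 2.33 on the log2 scale in Chronic (SE 0.107, adjusted p = 1.53e-11), rose by 1.22 from Chronic to ChronicMEKi (adjusted p = 1.57e-07), and differed from Acute by -1.11 in ChronicMEKi (adjusted p = 3.7e-07). For both receptor genes all 3 calls held in 20 of 20 alternatives. Klf2 in ChronicMEKi stood at -0.60 against Acute and S1pr1 at -2.42. Whether these gaps differ from each other was not tested.

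**Figure D2:**
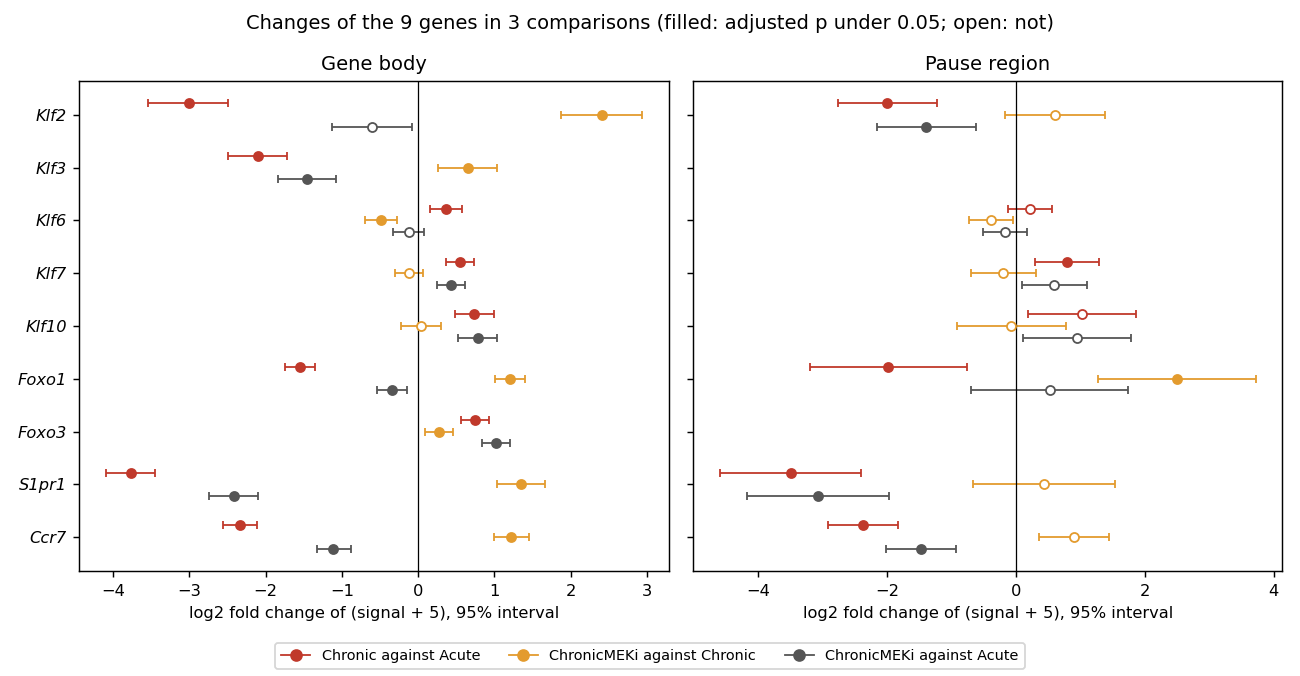
Log2 fold change of signal plus 5 (horizontal axis, points with 95% intervals) of the 9 genes in the gene body and of 7 in the pause region, for the 3 comparisons; filled points have a limma adjusted p under 0.05. In the gene body Klf2 ran from -3.01 in Chronic against Acute to 2.41 in ChronicMEKi against Chronic, while the 0.36 of Klf6 against Acute reversed to -0.13 on library totals.

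Levels compared between genes need the signal per kilobase. The whole span of the transcript was used, since the limits of the region are not given. Exons take 1847 of 2624 bases in Klf2 and 8665 of 84886 in Foxo1. The part of such differences in the ranking was not tested. In Acute, Klf6 was highest at 1156 per kilobase, with S1pr1 at 1019 and Ccr7 at 1016, followed by Klf2 at 446, Foxo1 at 251, Klf10 at 104, Klf7 at 73.7, Klf3 at 60.3 and Foxo3 at 41.1. S1pr1 (SD 82.6) and Ccr7 (SD 96.9) did not differ beyond their spread. The median of all tested genes was 35.5, so all 9 lay above it. In Chronic, Klf6 was at 1495, Ccr7 at 203 and Klf10 at 175, whereas S1pr1 was at 74.6, Klf2 at 54.8 and Klf3 at 13.7. Klf3 then lay below the median gene, at 36.4. In ChronicMEKi, Klf6 was at 1061, Ccr7 at 470, Klf2 at 291, Foxo1 at 198 and S1pr1 at 189. Klf2 thus stood below S1pr1 per kilobase in Acute and above it in ChronicMEKi, and in Chronic the gap between them was within their spread (SD 21.1 for Klf2 and 14.8 for S1pr1).

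**Figure D3:**
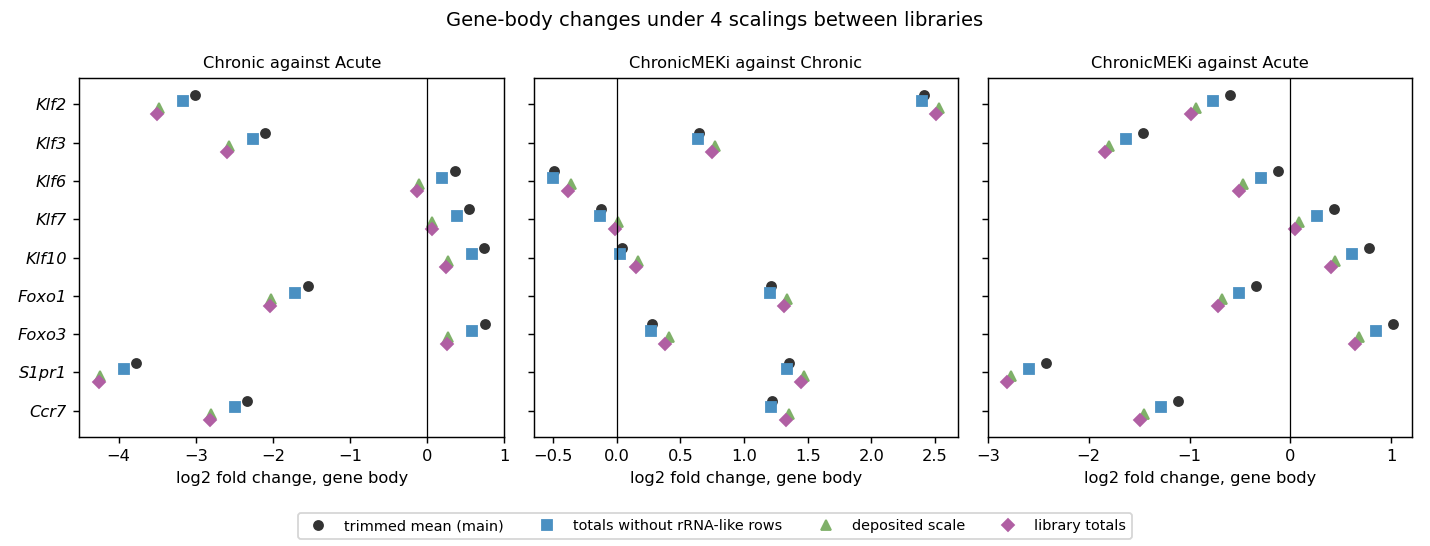
Gene-body log2 fold change (horizontal axis) of the 9 genes under 4 ways of scaling the libraries, 1 panel per comparison. Scaling on library totals moved every gene down against Acute, as it moved the median gene from -0.02 to -0.5 in Chronic, and Klf6 crossed 0 there (0.36 to -0.13) while the 5 genes that fell stayed far below it.

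The choice of scaling bears on the rises more than on the falls. On library totals the median of all genes moved to -0.5 in Chronic against Acute and to -0.37 in ChronicMEKi against Acute, and on the deposited scale to -0.48 and -0.33. Klf7 was at 0.06, Klf10 at 0.25 and Foxo3 at 0.26 on library totals in Chronic against Acute, none of them called. On either scale 5 of the 9 genes were called in Chronic against Acute, all 5 lower. Over all genes, library totals gave 1096 higher and 6846 lower calls in that comparison, against 2875 and 2528 with the trimmed mean. In ChronicMEKi against Acute they gave 955 higher and 4965 lower, against 2291 and 1827, and in ChronicMEKi against Chronic 1769 and 741, against 1583 and 1219. The share of rRNA-like signal moved with the same groups. On library totals without the rRNA-like rows the median of all genes in Chronic against Acute was -0.17, and 8 of the 9 genes were called, 3 higher and 5 lower. Klf7 was then at 0.39, Klf10 at 0.58 and Foxo3 at 0.59, all called, and Klf6 at 0.20 was not (adjusted p = 0.113).

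Klf2, Foxo1, S1pr1 and Ccr7 fell in the pause region as in the gene body, at much lower signal. For all of these but Ccr7 a fall was favoured by the filter, as set out below. Klf3 and Foxo3 did not reach the filter in the pause region, and 7 of the 9 were tested. In Chronic against Acute, 5 of 7 passed, Klf2, Foxo1, S1pr1 and Ccr7 lower and Klf7 higher, where 10.7% of 7678 genes passed, 5.35% lower and 5.37% higher. Foxo1 alone passed in ChronicMEKi against Chronic, where 3% of genes passed and 1.56% were higher. Klf2, S1pr1 and Ccr7 passed in ChronicMEKi against Acute, all lower, where 5.95% of genes passed and 2.51% were lower. S1pr1 reached the filter there only through its Acute libraries, and it was not tested when an Acute library was left out. A fall from Acute was thus favoured by its inclusion, and its calls against Acute add no independent support.

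Klf2 pause-region signal was 124, 180 and 204 in Acute, 39, 33 and 42 in Chronic, and 75, 60 and 48 in ChronicMEKi. Acute was highest by a wide margin, and the other groups lay close without overlap. No Chronic library of Klf2 reached the filter. Klf2 fell by 2 on the log2 scale in Chronic (SE 0.378, limma adjusted p = 0.000513), and in ChronicMEKi it was 0.61 above Chronic (95% interval -0.17 to 1.38, adjusted p = 0.527). Against Acute, ChronicMEKi was at -1.39 (adjusted p = 0.0243), a call lost without Acute replicate 2 or 3 or ChronicMEKi replicate 2 or 3, with adjusted p of 0.0666 to 0.123. It was also lost on the deposited scale (-1.27, adjusted p = 0.0849) and without a filter (adjusted p = 0.178).

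S1pr1 pause-region signal was 280, 271 and 204 in Acute, 36, 35 and 2 in Chronic, and 25, 24 and 27 in ChronicMEKi. Unlike in its gene body, ChronicMEKi lay inside the range of Chronic. The change was -3.50 in Chronic against Acute (adjusted p = 3.48e-05), -3.07 in ChronicMEKi against Acute (adjusted p = 0.000437) and 0.43 in ChronicMEKi against Chronic (95% interval -0.67 to 1.53). Both falls are of a gene that passed the filter through Acute alone. Ccr7 gave 803, 536 and 999, then 156, 89 and 204, then 231, 313 and 268 in the 3 groups, with no overlap. It fell by 2.37 in Chronic (adjusted p = 2.46e-07), and the 0.90 from Chronic to ChronicMEKi did not pass (adjusted p = 0.0631). That step passed without Acute replicate 2 (0.046) or 3 (0.0484) or Chronic replicate 3 (0.0164), and on library totals (1.15, adjusted p = 0.0177) and the deposited scale (1.10, adjusted p = 0.0316).

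Foxo1 pause-region signal was small, at 40, 43 and 71 in Acute, 20, 5 and 6 in Chronic, and 82, 46 and 103 in ChronicMEKi. Chronic was lowest, and Acute and ChronicMEKi overlapped. It fell by 1.98 in Chronic (adjusted p = 0.029) and rose by 2.5 in ChronicMEKi against Chronic (SE 0.596, adjusted p = 0.0153). The fall passed in 8 of 16 alternatives and was lost when any 1 library other than Chronic replicate 1 or ChronicMEKi replicate 2 was left out (adjusted p 0.0606 to 0.144). The rise was lost without ChronicMEKi replicate 1 (0.127) or 3 (0.158). Both changes are of a gene that passed the filter without any Chronic library. Klf7 was 0.79 higher in Chronic (adjusted p = 0.0364), a call lost without Acute replicate 1 or any 1 of the Chronic libraries (0.0743 to 0.206). It was also lost on library totals, at 0.19 (adjusted p = 0.667), on the deposited scale, at 0.71 (adjusted p = 0.179), and without a filter (adjusted p = 0.21). The pause-region changes of Klf6 (0.22 in Chronic) and Klf10 (1.02, adjusted p = 0.119) did not pass.

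The difference between pause-region and gene-body log2 signal within a library was not called changed for any of the 7 genes by limma in any comparison. RNA labelled for 30 minutes is not limited to RNA held by polymerase near the start, and the limits of the regions are not given. This difference is therefore not a direct measure of promoter-proximal pausing, and the lack of calls does not show that pausing was unchanged. None of 7413 genes passed (0%). At an unadjusted p under 0.05 there were 749 genes (10.1%) in Chronic against Acute, 394 (5.31%) in ChronicMEKi against Chronic and 591 (7.97%) in ChronicMEKi against Acute, of which 1, 2 and 1 were among the 7. No test other than limma was run on this measure. Klf2 had differences of -2.88, -3.03 and -2.37 in Acute, -2.28, -1.68 and -1.26 in Chronic, and -3.28, -3.24 and -4.12 in ChronicMEKi. ChronicMEKi lay lowest and Chronic highest. From Chronic to ChronicMEKi the change was -1.80 (95% interval -2.59 to -1.02, unadjusted p = 0.000376, adjusted p = 0.726), which did not pass over all genes.

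**Figure D4:**
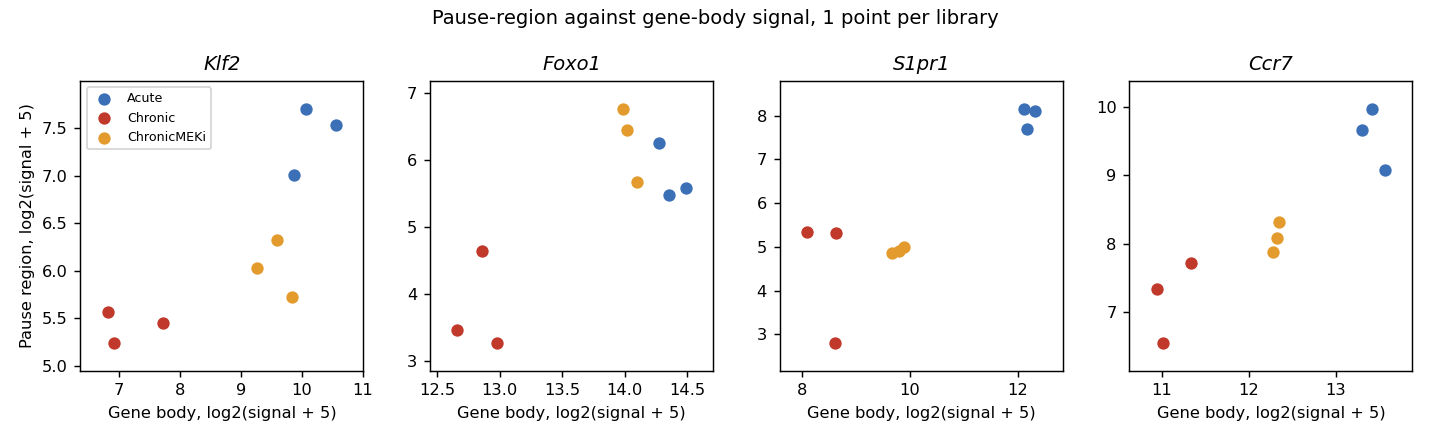
Pause-region signal (vertical axis) against gene-body signal (horizontal axis), both as log2 of signal plus 5, for Klf2, Foxo1, S1pr1 and Ccr7, 1 point per library coloured by group. For S1pr1 the ChronicMEKi libraries lie to the right of Chronic but no higher than its upper 2 libraries, and for Foxo1 they overlap Acute in the pause region.

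The other annotated transcripts of these genes moved as the chosen one did in Chronic against Acute. Log2 differences of group means ran from -2.52 to -1.65 over the Klf3 transcripts, 0.21 to 0.36 over those of Klf6, 0.55 to 0.58 over those of Klf7, 0.29 to 1.27 over those of Klf10 and 0.59 to 0.75 over those of Foxo3. Klf2, Foxo1, S1pr1 and Ccr7 have 1 transcript each in the tables. From Chronic to ChronicMEKi all Klf3 transcripts were higher, the lowest difference being 0.18. Transcripts of 1 gene share most of their bases, so these values are not independent. For Klf6 all of them are on the scaling that gives it a rise.

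The wider set of FOXO1-KLF2 target genes did not fall as a block. Of 29 genes tested, 14 fell and 8 rose in Chronic against Acute (median -0.27), and 6 rose and 7 fell in ChronicMEKi against Chronic (median -0.09). Of all 15942 genes, 15.9% fell and 18% rose in the first comparison, and 9.93% rose and 7.65% fell in the second. On library totals the first split was 17 lower and 4 higher, and over all genes 6846 lower and 1096 higher. The medians over all genes were -0.02 and 0.04. Rasgrp2, an exchange factor for the GTPase RAP1, fell by 2.76 and rose by 2.63 (means 2104, 314 and 1927 in the 3 groups). Tcf7, which encodes TCF1, fell by 2.03 and rose by 1.56, and the integrin gene Itgb7 went from 5365 to 1562 and back to 4498. Trib2, a pseudokinase gene, fell by 3.80 and stayed low, with means of 2024, 141 and 137. Rasgrp2, Tcf7 and Trib2 overlap other annotated genes, whose reads cannot be told apart from theirs. The same limit holds for many list genes named below. Among them are Lef1, Ikzf2, Klf12, Klf13, Sp6, Sgk3, Skp2, Pik3r1, Pik3ip1, Mapk7, Mef2a, Mef2b, Mef2d and Cxcr6.

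Individual genes linked to FOXO1, KLF2 or S1PR1 differed in their directions. Il7r, the interleukin-7 receptor gene and a FOXO1 target, rose by 0.88 in Chronic (limma adjusted p = 2.87e-07) and fell by 1.01 with MEK inhibition (adjusted p = 1.23e-07). Cd69, whose product removes S1PR1 from the cell surface, fell by 1.28 in Chronic and by 1.28 again with MEK inhibition (means 2646, 1080 and 441). Lef1, a partner of TCF1, fell by 0.47, a call lost without trend and robust moderation (adjusted p = 0.0633), and then by 0.68. Cxcr4, a chemokine receptor gene, fell by 1.02 and rose by 1.86, ending 0.84 above Acute, a difference lost on library totals (0.46). Ikzf2, for the Ikaros factor Helios, rose by 1.32 with MEK inhibition, while its 0.31 in Chronic against Acute reversed to -0.18 on library totals and was lost without Chronic replicate 2 (adjusted p = 0.0659).

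Among 12 tested KLF and SP factors outside the 9, 6 fell and 2 rose in Chronic against Acute (median -0.28), and 6 rose and none fell in ChronicMEKi against Chronic (median 0.28). The shares of all genes were 15.9% lower and 18% higher, then 9.93% higher and 7.65% lower. On library totals 8 fell and 1 rose in Chronic. Klf13 fell by 0.79 and rose by 0.72. Klf11 rose by 2.20 in Chronic (means 143 and 659) and differed by -0.02 between Chronic and ChronicMEKi. Klf12 rose by 0.95 with MEK inhibition. Klf4, a quiescence factor of CD8 T cells, was low (means 43.3, 82.6 and 51.7) and passed only in Chronic against Acute without trend and robust moderation (0.90, adjusted p = 0.0348). Sp6 fell by 2.20 from a low level (143 to 27.1), and its rise of 1.5 with MEK inhibition was lost without Chronic replicate 1 or 2 or ChronicMEKi replicate 1 or 2 (adjusted p 0.0602 to 0.108).

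Of 9 tested forkhead genes, 4 fell and 2 rose in Chronic (median -0.22), and 3 rose and none fell with MEK inhibition (median 0.01). Among all genes 15.9% fell and 18% rose in Chronic, and 9.93% rose and 7.65% fell with MEK inhibition. On library totals 5 fell and 1 rose in Chronic. Foxn3 fell by 2.03 and rose by 1.09. Foxp1, a further quiescence factor of naive T cells, fell by 0.68 and rose by 0.67, and its ChronicMEKi mean of 140111 was next to the Acute mean of 141034, although on library totals it was lower (-0.39, adjusted p = 0.0401). Foxm1, which drives mitotic genes, rose by 0.91 in Chronic and was 1.49 above Acute in ChronicMEKi. Its step of 0.58 between them was lost without ChronicMEKi replicate 1 (adjusted p = 0.068). These 3 genes overlap other annotated genes.

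The PI3K-AKT genes that act on FOXO proteins were split. All 27 were tested, with 7 higher and 10 lower in Chronic (median -0.14) and 4 higher and 5 lower with MEK inhibition (median 0.12). Library totals gave 2 higher and 18 lower, then 6 higher and 2 lower. The related kinases Sgk1 and Sgk3, which can phosphorylate FOXO proteins, went opposite ways. Sgk3 fell by 2.69 in Chronic and rose by 1.78 with MEK inhibition, and Sgk1 rose by 1.20 and fell by 1.64. Skp2, whose product targets FOXO1 for degradation, rose by 1.25 and stayed there (-0.05). Pik3r1, a regulatory subunit of PI3K, fell by 0.85 and rose by 0.75. Pik3ip1, an inhibitor of PI3K, fell by 1.08 in Chronic, and its 0.47 with MEK inhibition did not pass (adjusted p = 0.105) except on the deposited scale and without Chronic replicate 2 (adjusted p = 0.0348).

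In the MEK5-ERK5-MEF2 group, 3 of 11 genes rose and 3 fell in Chronic (median 0.25), and 2 rose and 1 fell with MEK inhibition (median 0.19). The matching shares of all genes were 18% and 15.9%, then 9.93% and 7.65%. Without Acute replicate 3 or Chronic replicate 1, 3 genes were called in Chronic in place of 6, and library totals gave 1 higher and 5 lower, then 2 higher and none lower. Mef2a fell by 0.62 and rose by 0.86, and Mef2d fell by 0.85 and rose by 0.59. Both encode factors of the family whose consensus is marked in the Klf2 stretch above. Of the same family, Mef2c was at -1.5 in Chronic against Acute (adjusted p = 0.0391), a call lost without a filter (adjusted p = 0.0684). Mef2c did not pass with MEK inhibition (0.19, adjusted p = 0.874). Mef2b was called in neither comparison (0.51, then -0.53), with SDs of 2798, 3324 and 4194 in the 3 groups. Whether any of these factors acts on Klf2 here was not tested. Mapk7, which encodes ERK5, rose by 1.15 in Chronic and did not pass with MEK inhibition (-0.24, adjusted p = 0.529). Map3k2, a kinase upstream of MEK5, fell by 0.60 with MEK inhibition, a call lost without Chronic replicate 2 (adjusted p = 0.0529) and on library totals (-0.50), on the deposited scale (-0.47) and without trend and robust moderation (adjusted p = 0.0718).

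Of 28 further egress and homing genes tested, 11 fell and 7 rose in Chronic (median -0.14), and 5 rose and 7 fell with MEK inhibition (median -0.01). Among all genes tested 15.9% fell and 18% rose, then 9.93% rose and 7.65% fell. On library totals 16 fell and 3 rose in Chronic. Rhoh, a haematopoietic GTPase gene, fell by 2.10 and rose by 1.34. Selplg, the selectin ligand PSGL-1, fell by 1.05 and rose by 0.89. Plxnd1, a semaphorin receptor gene, rose by 3.23 from a mean of 82.5 to 813 and fell by 1.59 with MEK inhibition. Gcnt1, a glycosyltransferase that builds selectin ligands, rose by 2.25 in Chronic and stayed high (0.32 further, adjusted p = 0.304). Cxcr6, a receptor of tissue-resident T cells, rose by 1.61 and fell by 2.93. Among the other sphingosine-1-phosphate receptor genes, S1pr4 had means of 830, 817 and 684 and was not called in any comparison with the trimmed mean. On library totals S1pr4 was called lower in Chronic against Acute (-0.49, adjusted p = 0.0273) and in ChronicMEKi against Acute (-0.64, adjusted p = 0.0069). S1pr2, chosen after its values were seen, had means of 83.8, 202 and 111 and was not called (1.18 in Chronic against Acute, adjusted p = 0.0544).

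**Figure D5:**
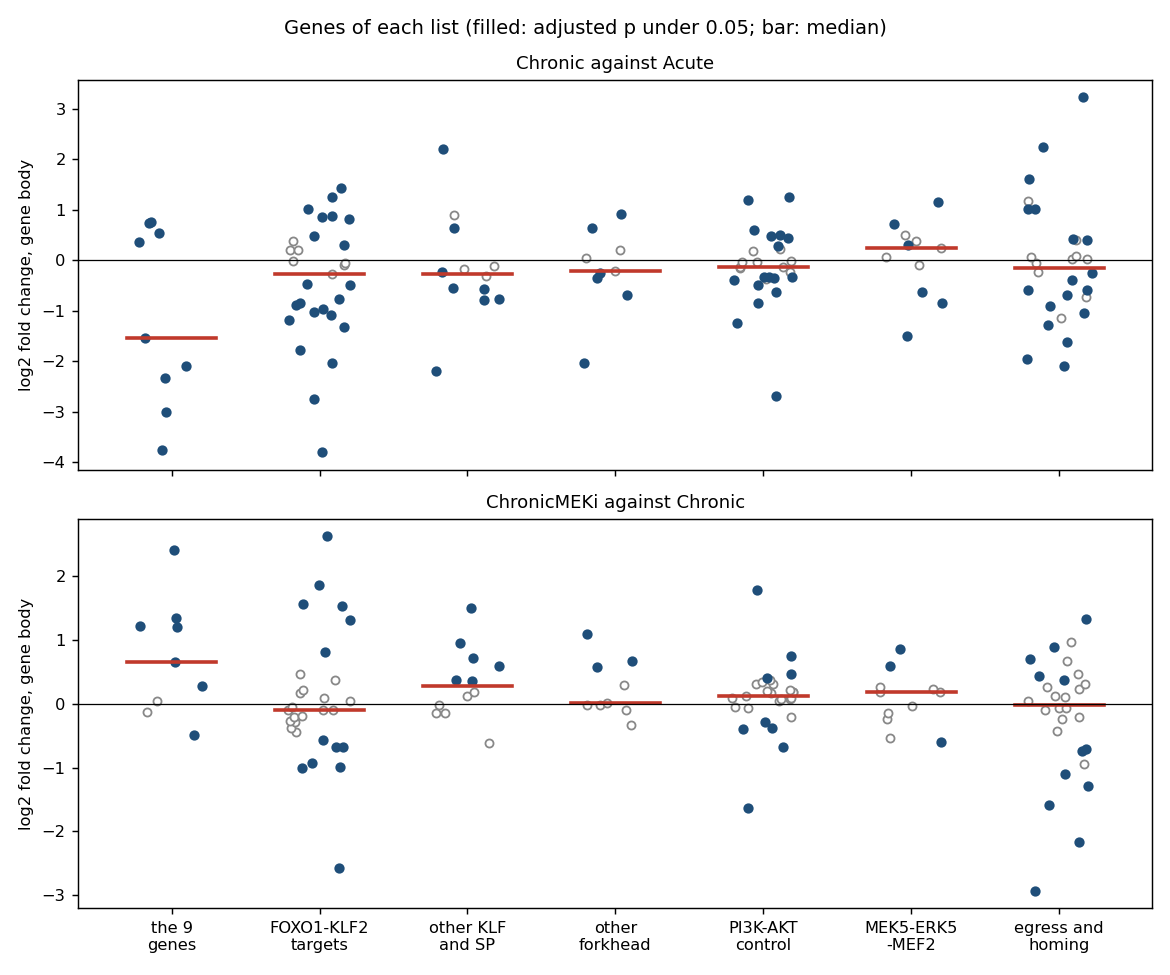
Gene-body log2 fold change (vertical axis) of every tested gene of the 9 and of 6 related lists, Chronic against Acute above and ChronicMEKi against Chronic below; filled points have a limma adjusted p under 0.05 and bars are medians. The median of the 9 genes was -1.55 and then 0.65, that of the FOXO1-KLF2 targets -0.27 and then -0.09; among the 9, the 0.36 of Klf6 reverses on library totals.

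The genes whose 9-library profiles lay nearest to those of Klf2, Foxo1, S1pr1 and Ccr7 were found by the root mean square difference of centred log2 signal. For Klf2 they were Mxd1 (0.313), Chd3 (0.336) and Iigp1 (0.336), against a median of 1.38 over all candidates. Ccr7, the nearest of the other 8 genes to Klf2, was at 0.606. The nearest to Foxo1 were Slc9a3r1 (0.0791), Smurf2 (0.0862) and Zbtb20 (0.087), with a candidate median of 0.738. Cd86 (0.223), Ms4a4b (0.285) and Nt5e (0.293) were nearest to S1pr1, with a median of 1.6. Rasgrp4 (0.129), Pdcd4 (0.154) and Fbxo17 (0.162) were nearest to Ccr7, with a median of 1.01, and Klf3 was the nearest of the other 8 genes to Ccr7 at 0.309. These distances are descriptions over 9 libraries and carry no test.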

How the data were processed

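Nascent RNA of 9 libraries (3 groups of 3) was analysed from 2 deposited tables of signal, 1 for gene bodies and 1 for pause regions, with 118482 transcript rows each. Per the submitters' processing notes the authors used FastQC 0.12.0, Trim Galore 0.6.10, STAR 2.7.0a, SAMtools 1.19.2, deepTools 0.1.9, R 4.1.2 and the build mm10. The limits of the regions, the use of strand and the scale factors are not given in the sources used here. The deposited values are coverage signal with 1 step size per library (0.764 to 1.06), not read counts, so no count model was run.

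Rows were matched to GENCODE M21 transcripts (117346 with version, 383 without, 753 unmatched), and each gene kept the row whose gene-body signal was highest on average. Genes reaching a signal of 50 in 3 or more libraries were tested. Libraries were scaled by a trimmed mean (30% of log ratios and 5% of levels trimmed), and log2(signal + 5) was fitted with limma 3.58.1 in R 4.3.3, 1 mean per group, all 9 libraries together, using a trend with intensity and robust moderation. Fold changes are on that scale, which understates changes of low genes. P-values were adjusted by Benjamini-Hochberg over all genes tested, at a threshold of 0.05. A permutation test of 3 against 3 libraries cannot go below 0.1. The procedure was tested on simulated data.

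The 9 genes and all lists were chosen with earlier results of these data known. Other named genes are those fixed by name, the called genes with the largest changes of each list and the nearest profiles. Itgb7, Selplg, S1pr2 and Mef2b were chosen after their values were seen. Marker lists other than that of CD8 T cells had summed signal, over the 3 groups in turn, of 1040 to 1367, 1054 to 1383 and 1729 to 2016 (CD4), 695 to 852, 389 to 454 and 247 to 676 (B cell), 161 to 232, 112 to 175 and 90.5 to 225 (myeloid), 1315 to 1537, 982 to 1854 and 1588 to 1718 (NK, mostly Eomes), 11.8 to 34, 6.76 to 31.4 and 20 to 46.7 (erythroid), and 6088 to 7448, 3763 to 4302 and 5270 to 6124 (endothelial, mostly Pecam1, with Cdh5 at 1.12 to 36.7). Their part in the results was not tested. Alternatives covered scaling, pseudocount, filter, row choice, replicate block, moderation and each library left out. Some genes of the lists and markers are counted but not reported here by name.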

Additional observations from a re-analysis of the deposited data

How the results depend on the processing

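Of 540 gene-body values of the 9 genes under 20 alternatives, 502 kept their direction and side of the threshold, 28 lost and 8 gained a call, and 2 reversed. Both reversals were Klf6 in Chronic against Acute, at -0.13 on library totals and -0.11 on the deposited scale. Outside the 9 genes, Ikzf2 and Hdac4 reversed in that comparison, each at -0.18 on library totals and -0.16 on the deposited scale. On both scales 5 of the 9 genes were called in place of 9, and totals without rRNA-like rows moved the median of all genes to -0.17. In the pause region ChronicMEKi against Chronic gave 2 called genes in place of 1 on library totals and on the deposited scale, and with a signal of at least 200 Chronic against Acute gave 2 in place of 5 and ChronicMEKi against Acute 1 in place of 3. With 1 library left out, the gene-body counts were 9 to 9, 5 to 6 and 6 to 8 in Chronic against Acute, ChronicMEKi against Chronic and ChronicMEKi against Acute, and the pause-region counts 2 to 5, 0 to 2 and 1 to 3. Over all genes the pause-region calls in Chronic against Acute were 823, or 1723 on library totals (123 higher, 1600 lower), 498 without a filter and 448 with a signal of at least 200. In ChronicMEKi against Chronic they were 230, or 106 without a filter, and in ChronicMEKi against Acute 457, or 208 without a filter and 299 with a signal of at least 200. The MEK5-ERK5-MEF2 calls in Chronic against Acute were 6, or 3 without trend and robust moderation. Calls on the difference between pause-region and gene-body signal over all genes in Chronic against Acute were 0, or 27 without a filter and 22 with a pseudocount of 20. Beyond fewer libraries or genes, the cause of these shifts was not tested.

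Deviations of same-numbered libraries from their group means correlated at -0.533 to 0.0979 over 9 pairs. Such correlations cannot exclude a shared origin, and the labels do not give one, so whether replicate numbers pair the libraries is unknown. With the replicate number as a block, pause-region calls in ChronicMEKi against Chronic were 2 in place of 1, with Ccr7 added (adjusted p = 0.0345). The planned edgeR fit was not run, since whole reads could not be recovered from coverage. Low pause-region signal limits Foxo1, S1pr1 and Klf2 there, and depth in reads is unknown.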
